A study of Mus musculus with 21 samples.

Results

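Haematopoietic stem cells without Phf6 were compared with multipotent progenitors downstream of them, also without Phf6. This used 7 of the 21 RNA-seq libraries of the study: 3 of KO LT-HSC and 4 of KO MPP2. The libraries were taken by genotype and population from the labels, and the comparison covers all 21100 genes with enough counts to test, of 54446 listed. LT-HSC stands for the long-term stem cell of the blood and MPP2 for a multipotent progenitor, both sorted from bone marrow of 12-week-old C57BL/6 mice. In the KO mice Phf6 was knocked out, and in the WT mice it was intact. Neither the allele nor the tissues in which it was deleted is given in the sources used here. Each library came from 100 to 200 cells. The sort used a lineage cocktail with Sca-1, cKit, CD150 and CD48, and no stain for Flt3. Libraries are named by group and number. Libraries numbered 1 and 2 of both populations carry sample titles with low numbers, and the others titles with high numbers. Libraries 2 of both groups were from male mice and the others from female mice, by Xist and Ddx3y counts. Nothing in the labels says that KO LT-HSC 3 came from the same mouse as either KO MPP2 3 or KO MPP2 4.

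LT-HSC divide rarely and can rebuild all blood lineages for life. MPP2 are their faster-dividing progeny, with short-term repopulating capacity and a bias toward megakaryocytes and erythroid cells. In mouse marrow they are told apart by surface CD48, which LT-HSC lack and MPP2 carry, while both carry CD150. PHF6, a nuclear protein with plant homeodomain-type zinc fingers, is encoded on the X chromosome and is mutated in human T-cell and myeloid leukaemias. The question was which genes separate stem cell from progenitor when Phf6 is missing, and whether that step differs from the one in WT mice.

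The 7 libraries held 25094127 to 31611366 counts, and a count of 3 stood for 0.0949 to 0.120 CPM before scaling. Levels are in CPM, read counts relative to library size scaled with TMM factors, and means are given ± SD (n = 3 KO LT-HSC and 4 KO MPP2 libraries). Log2 fold changes are KO LT-HSC over KO MPP2, given ± SE, with p values from edgeR's quasi-likelihood test adjusted over all 21100 genes. A gene with an adjusted p under 0.05 is said to be called. These p values measure the spread between sorted samples. In bulk samples, fewer cells of a type and less RNA per cell cannot be told apart. Some libraries stood apart. KO MPP2 1 had 45.8% of its counts in immunoglobulin genes and KO MPP2 2 had 2.67%, against at most 0.0025% in the other 5 libraries. Neutrophil markers summed to 16040 CPM in KO MPP2 1 and to 13.7 to 48.8 CPM in the other KO MPP2 libraries, against 37.5 to 82.4 CPM in KO LT-HSC. KO LT-HSC 3 had 20297 genes with a count, against 24376 and 24526 in the other KO LT-HSC libraries. Several results that rest on these libraries, but not all, are given with and without them.

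Phf6 (ENSMUSG00000025626.16, chromosome X, 52912266 to 52956943, plus strand, mm10) was low in all 7 libraries. It had 5.75, 10.01 and 13.2 CPM in KO LT-HSC, against 12.3, 11.7, 11.3 and 11.9 CPM in KO MPP2. The WT means were 151 CPM in LT-HSC and 138 CPM in MPP2. The residual level did not differ detectably between the KO populations (log2 fold change -0.29 ± 0.47, edgeR adjusted p = 0.827). An exact two-sided permutation test over the 7 libraries gave p = 0.343, where the smallest possible p was 0.0571.

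The sort marker that should separate the populations did so at the RNA level. Cd48 (chromosome 1, 171682009 to 171705258, plus strand), an adhesion receptor of the SLAM family, had 19.1, 7.44 and 6.37 CPM in KO LT-HSC, against 538, 460, 165 and 219 CPM in KO MPP2. Every KO MPP2 library lay above every KO LT-HSC library, and the log2 fold change was -4.98 ± 0.57 (edgeR adjusted p = 0.000297). Slamf1, which encodes CD150, had 65.1, 57.9 and 54.9 CPM in KO LT-HSC, against 37.0, 17.7, 59.6 and 78.1 CPM in KO MPP2. Kit, the stem cell factor receptor, had 245, 235 and 300 CPM in KO LT-HSC, against 294, 243, 206 and 170 CPM in KO MPP2. Neither was called, and both sets of libraries overlapped. Ly6a, which encodes Sca-1, had 359, 213 and 171 CPM in KO LT-HSC, against 1429, 158, 17.5 and 5.74 CPM in KO MPP2. Sca-1 was a gate of the sort, and the Ly6a level of KO MPP2 differed widely between libraries with low and with high title numbers. All 10 LT-HSC markers listed had fitted values above 0, as did 46.9% of all genes tested, and 3 of them were called higher. All 8 MPP2 markers had fitted values below 0, as did 52.5% of all genes tested, and 2 were called lower. These were Cd48, itself a gate of the sort, and Mki67. The call of Mki67 was lost without KO LT-HSC 1, KO LT-HSC 3, KO MPP2 2 or KO MPP2 3. Pf4, also of the 8, changed sign under some alternatives.

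In all, 381 genes, 1.81% of those tested, were called. Of these, 221 (1.05% of the genes tested) were higher and 160 (0.758%) lower in KO LT-HSC, and the median log2 fold change of all genes was -0.04. Stem cell regulators, endothelial-type surface proteins and cavins were among the higher genes. Mitotic genes and granulocyte-monocyte genes were among the lower ones. In 375 of the 381 the libraries of the groups did not overlap, and 2999 genes tested, 14.2%, had no overlap. At the level of single libraries the calls were unevenly secured. When each of the 7 libraries was left out in turn, 88 of the calls (59 higher and 29 lower) were made every time. The number of calls was 147 without KO LT-HSC 1, 146 without KO LT-HSC 3, and 204, 181 and 215 without KO MPP2 2, KO MPP2 3 and KO MPP2 4. Of the calls, 345 were also made by both DESeq2 and limma voom, which called more genes from the same libraries (1245 and 799). With only the 7 libraries in the fit, 96 of the 381 calls were made again, and with only the 11 KO libraries 143. Most calls thus depended on the spread estimated with the other libraries.

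**Figure D1:**
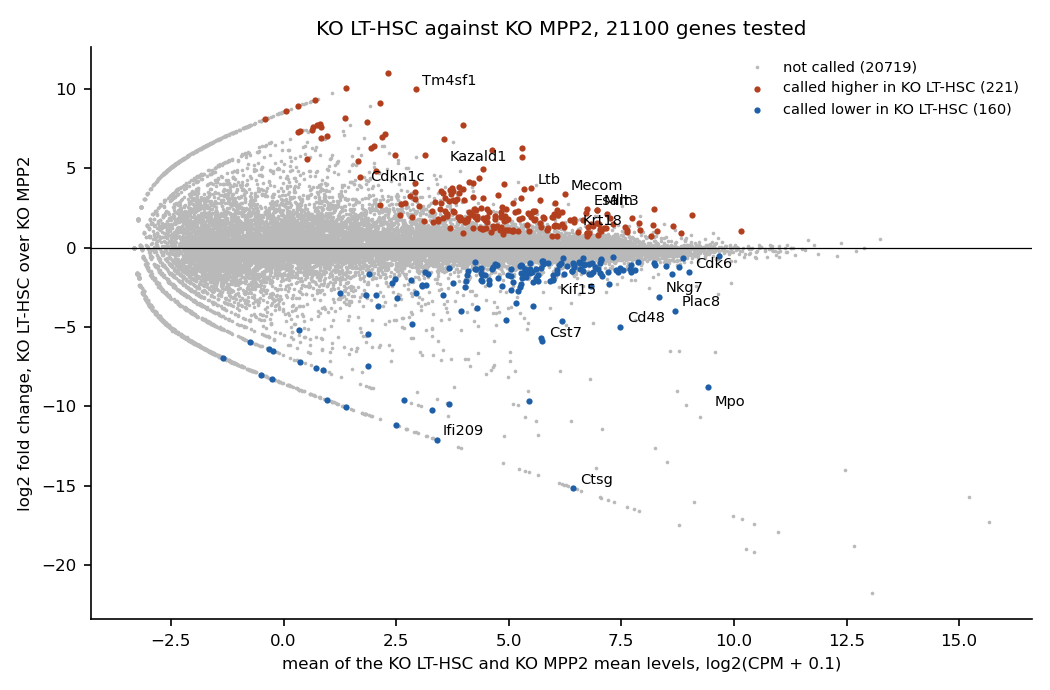
Each point is a gene, with the mean level of the KO LT-HSC and KO MPP2 groups on the x axis (log2 of CPM + 0.1) and the log2 fold change, KO LT-HSC over KO MPP2, on the y axis. The 221 genes called higher and 160 called lower are coloured. Curved rows at the left and bottom edges are genes at or near 0 counts in one group, whose fitted values are not bounds.

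Transcription regulators known from stem cells were called on the higher side alone. Of 42 tested, 10 were called higher and 0 lower, and 35 had fitted values above 0, with a median log2 fold change of 0.82. Mecom (chromosome 3, 29951296 to 30548008, minus strand), a zinc-finger factor needed for stem cell maintenance, had 190, 115 and 110 CPM in KO LT-HSC, against 14.9, 22.2, 10.6 and 6.20 CPM in KO MPP2. The groups were far apart, with a log2 fold change of 3.36 ± 0.56 (edgeR adjusted p = 0.00358). Mllt3, a chromatin reader of the super elongation complex that sustains stem cells, had 284, 166 and 179 CPM in KO LT-HSC, against 43.1, 40.2, 46.8 and 28.6 CPM in KO MPP2 (log2 fold change 2.40 ± 0.42, edgeR adjusted p = 0.00477). Nkx2-3, a homeobox factor, had 19.3, 30.3 and 38.2 CPM in KO LT-HSC, against 3.68, 2.79, 1.03 and 1.39 CPM in KO MPP2 (log2 fold change 3.73 ± 0.60). These 3 were the calls of the list that held without each library in turn. The list had 5 calls without KO LT-HSC 1, and 6 each without KO LT-HSC 3 and without KO MPP2 3.

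The other 7 included Nr4a1, Ndn, Prdm16, Txnip, Hoxb5 and Hoxa9. Ndn, a maternally imprinted growth suppressor, averaged 75.02 ± 19.6 CPM in KO LT-HSC and 5.76 ± 3.23 CPM in KO MPP2 (SD, n = 3 and 4). Its call was lost without KO MPP2 3 (edgeR adjusted p = 0.0507). Hoxb5, a homeobox gene used to mark long-term stem cells, had 21.2, 14.6 and 15.7 CPM in KO LT-HSC, against 0, 0.607, 0.568 and 0 CPM in KO MPP2. Its libraries were far apart, yet its call was lost without any of KO LT-HSC 1, KO LT-HSC 3, KO MPP2 2, KO MPP2 3 and KO MPP2 4. Txnip, the thioredoxin inhibitor, averaged 594 ± 41.3 CPM in KO LT-HSC and 317 ± 93.3 CPM in KO MPP2, and its call was lost without any library but KO MPP2 1. Hlf and Meis1, both stem cell regulators, were not called. Hlf had 265, 205 and 234 CPM in KO LT-HSC, against 89.3, 80.4, 24.6 and 13.2 CPM in KO MPP2 (edgeR adjusted p = 0.135), and the groups did not overlap.

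The homeobox genes of the Hox and Meis list leaned the same way: 3 of 22 were called higher, 0 lower, and 20 had fitted values above 0, with a median of 1.85. Hoxa10 had 44.1, 32.0 and 45.4 CPM in KO LT-HSC, against 16.3, 7.61, 9.33 and 12.5 CPM in KO MPP2 (log2 fold change 1.82 ± 0.28, edgeR adjusted p = 0.00198). It was the call of this list that held without each library. Its neighbour Hoxa9 averaged 132 ± 50.2 CPM in KO LT-HSC and 42.8 ± 19.3 CPM in KO MPP2 (log2 fold change 1.63 ± 0.39). Without KO LT-HSC 1, without KO LT-HSC 3, or without KO MPP2 2, 3 or 4 the list had 1 call.

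Surface and adhesion genes of stem cells gave 13 calls higher and 0 lower of 50, with a median of 1.04, and 7 of the 13 held without each library. Esam, an endothelial adhesion molecule also found on stem cells, had 153, 157 and 230 CPM in KO LT-HSC, against 25.8, 32.4, 49.1 and 27.1 CPM in KO MPP2. No KO MPP2 library reached the lowest KO LT-HSC library (log2 fold change 2.42 ± 0.38, edgeR adjusted p = 0.00217). Emcn, a sialomucin of endothelium and stem cells, had 43.3, 22.4 and 33.0 CPM in KO LT-HSC, against 6.59, 3.96, 3.58 and 0.642 CPM in KO MPP2 (log2 fold change 3.16 ± 0.55). Art4, the Dombrock blood group protein, averaged 79.4 ± 14.2 CPM in KO LT-HSC and 15.7 ± 4.27 CPM in KO MPP2 (log2 fold change 2.34 ± 0.30). Ifitm1, a small membrane protein of the antiviral IFITM family, averaged 868 ± 95.1 CPM in KO LT-HSC and 207 ± 73.3 CPM in KO MPP2. Mmrn1, a multimerin stored in platelets, and Pdzk1ip1 also held. Procr, which encodes the stem cell marker EPCR, was not called (edgeR adjusted p = 0.0670), although its 78.1, 57.8 and 72.9 CPM in KO LT-HSC lay above the 9.04, 4.94, 2.24 and 0 CPM in KO MPP2. Fgd5, used in reporter mice for stem cells, was likewise not called (edgeR adjusted p = 0.0845), with 42.4, 20.8 and 24.2 CPM in KO LT-HSC and 0.710, 2.39, 0.781 and 0.143 CPM in KO MPP2. The surface list had 8 calls without KO LT-HSC 1.

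Of the 4 cavins and caveolins tested, which shape the membrane pits called caveolae, 3 were called higher. Cavin1 had 95.4, 106 and 179 CPM in KO LT-HSC, against 22.7, 30.3, 40.9 and 55.0 CPM in KO MPP2 (log2 fold change 1.77 ± 0.29, edgeR adjusted p = 0.00283). Cavin3 averaged 58.0 ± 14.1 CPM in KO LT-HSC and 16.7 ± 4.77 CPM in KO MPP2 (log2 fold change 1.80 ± 0.32). Both held without each library, whereas the call of Cav2 was lost without KO LT-HSC 1, KO MPP2 3 or KO MPP2 4.

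**Figure D2:**
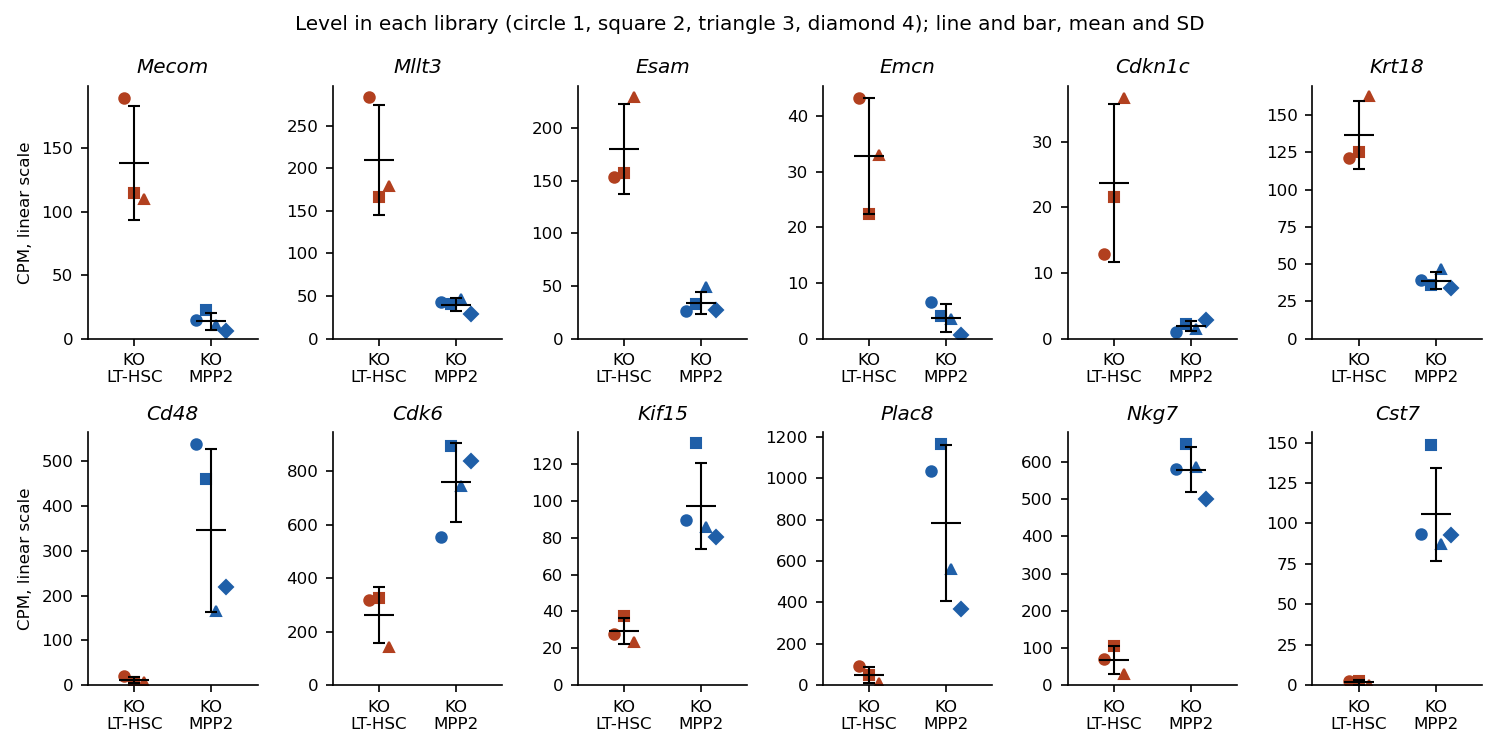
Level of 12 genes in each library, in CPM on linear axes from 0, with KO LT-HSC to the left of KO MPP2. Lines and bars are mean and SD of 3 and 4 libraries, and for each gene the groups do not overlap.

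The 15 genes with the largest positive log2 fold changes among called genes of at least 10 CPM without overlap included Hoxb5 of these regulators. Tm4sf1 (chromosome 3, 57285611 to 57301988, minus strand), a tetraspanin-like protein of endothelium, had 486, 410 and 420 counts in KO LT-HSC, against 0, 0, 1 and 0 counts in KO MPP2. With 1 count in KO MPP2 the ratio of the pooled levels was 1463, with a counting interval of 262.2 to 57840 (exact, 95%). Kazald1, a secreted protein with an immunoglobulin-type domain, had 31.0, 26.9 and 56.8 CPM in KO LT-HSC, against 3.23, 1.90, 1.03 and 1.21 CPM in KO MPP2. Its log2 fold change was 4.38 ± 0.47 (edgeR adjusted p = 0.000156). Ltb, the membrane anchor of the lymphotoxin complex, had 78.0, 66.5 and 108 CPM in KO LT-HSC, against 11.3, 8.58, 3.30 and 1.64 CPM in KO MPP2 (log2 fold change 3.77 ± 0.62). Vegfc, a lymphatic growth factor, had log2 fold change 3.84 ± 0.62, Npdc1 4.10 ± 0.65 and Vdr, the vitamin D receptor, 4.10 ± 0.72. These 6 held without each library. The other 9, Cpne8, Unc45b, Abcg3, Clec1a, Hoxb5, Ikzf4, Sult1a1, Trib3 and Lhcgr, each lost their call without KO LT-HSC 1, and all without at least 2 further libraries. The gene with the smallest adjusted p, Krt18, was chosen after its values were seen. Krt18 (chromosome 15, 102028180 to 102032027, plus strand), a simple epithelial keratin, had 122, 125 and 163 CPM in KO LT-HSC, against 39.1, 36.2, 46.5 and 33.6 CPM in KO MPP2. Its libraries were tight, and the log2 fold change was 1.81 ± 0.17 (edgeR adjusted p = 2.87e-05).

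Signalling lists held few calls each in number. By share, GIMAP, cytokine receptor, JAK-STAT, Notch and immediate early genes were called more often than all genes tested (1.81%). TNF and NF-kB, p53 and heat shock genes had 0 calls. The lists are small, and these shares were not tested. Fitted values lay above 0 for 46.9% of all genes tested. They did so for 21 of 26 JAK-STAT and SOCS genes (median 0.51) and 41 of 46 interferon response genes (0.70). The same held for 25 of 31 immediate early genes (1.40) and 7 of 8 GIMAP genes (1.38). Cish, a feedback inhibitor of cytokine receptors that STAT5 induces, had 68.8, 38.4 and 48.8 CPM in KO LT-HSC, against 16.8, 4.57, 9.44 and 6.95 CPM in KO MPP2 (log2 fold change 2.47 ± 0.40, edgeR adjusted p = 0.00283). With Stat4 it made up the 2 called members, both higher, of 26 JAK-STAT and SOCS genes. Among 41 cytokine receptors 3 were called higher (Il11ra1 and Il21r among them) and 1 lower (Csf1r). Il21r was lost without KO LT-HSC 1 or KO LT-HSC 3. Gata3, a T-lineage and stem cell factor, averaged 31.3 ± 2.90 CPM in KO LT-HSC and 5.72 ± 2.71 CPM in KO MPP2. It was 1 of 2 called, both higher, of 31 Notch pathway genes, with Mfng, which was lost without KO LT-HSC 3. Gimap5, a lymphocyte GTPase, averaged 86.1 ± 9.88 CPM in KO LT-HSC and 22.5 ± 7.04 CPM in KO MPP2, and with Gimap1 made up the 2 called of 8 GIMAP family genes. Gimap1 was lost without any library but KO MPP2 1. Il4, the type 2 cytokine, had 37.8, 29.6 and 18.6 CPM in KO LT-HSC, against 6.20, 4.53, 1.77 and 1.64 CPM in KO MPP2 (log2 fold change 3.02 ± 0.52). Of the mast cell and basophil markers, which include Il4, 1 was called higher and 1, the protease Cpa3, lower, of 11, and Cpa3 was lost without any library but KO LT-HSC 3 and KO MPP2 3. Of all 21100 genes tested, 3439 had an unadjusted p under 0.05, the background for such counts in any list. DESeq2 called 1245 of them and voom 799. None of 35 TNF and NF-kB genes was called by edgeR, with 9 at an unadjusted p under 0.05, 5 called by DESeq2 and 3 by voom. None of 34 p53 and apoptosis genes was called by edgeR, with 8 at an unadjusted p under 0.05, 2 by DESeq2 and 1 by voom. None of 35 heat shock genes was called by edgeR, DESeq2 or voom, with 4 at an unadjusted p under 0.05. Single calls, all higher and all lost without at least 1 library, were Oasl2 of 46 interferon response genes, Eng of 31 TGF-beta genes and H2-T22 of 25 MHC genes. Immediate early genes gave 2 calls higher of 31, Nr4a1 and Ier2, and 0 without KO LT-HSC 1.

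Genes of cell division were lower in KO LT-HSC. Of 61 mitosis genes, all with fitted values below 0, 24 were called lower and 0 higher, with a median log2 fold change of -1.37. Kif15 (chromosome 9, 122951046 to 123018733, plus strand), a spindle kinesin, had 27.7, 37.3 and 23.3 CPM in KO LT-HSC, against 89.9, 132, 86.1 and 80.7 CPM in KO MPP2 (log2 fold change -1.72 ± 0.26, edgeR adjusted p = 0.00184). Kif4, a chromokinesin, had 9.48, 17.9 and 17.5 CPM in KO LT-HSC, against 39.3, 65.8, 39.9 and 49.1 CPM in KO MPP2 (log2 fold change -1.70 ± 0.29). For both, each KO LT-HSC library lay below all of KO MPP2, and they were the 2 mitosis calls that held without each library. Nek2 (log2 fold change -2.01 ± 0.41) and Tpx2 (-1.68 ± 0.35), both spindle regulators, followed. Top2a, a topoisomerase that untangles chromosomes, averaged 191 ± 92.4 CPM in KO LT-HSC and 592 ± 214 CPM in KO MPP2. Mki67, the proliferation marker Ki-67, averaged 101 ± 42.7 CPM in KO LT-HSC and 271 ± 112 CPM in KO MPP2. The direction over the mitosis list was steady, with medians from -1.64 to -1.19 when 1 library was left out, but the calls were not. They numbered 2 without KO LT-HSC 1, 3 without KO LT-HSC 3, 3 without KO MPP2 2, 10 without KO MPP2 3 and 13 without KO MPP2 4. The WT libraries share the estimate of the spread, and without WT LT-HSC 1 or WT LT-HSC 2 the mitosis list had 10 calls each and without WT MPP2 2 it had 14.

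The kinase gene Cdk6, which drives cells out of quiescence, had 317, 325 and 141 CPM in KO LT-HSC, against 556, 896, 745 and 837 CPM in KO MPP2 (log2 fold change -1.54 ± 0.25, edgeR adjusted p = 0.00234). Cdkn1c, an imprinted inhibitor of cyclin-dependent kinases that maintains quiescence, ran the opposite way. It had 12.8, 21.6 and 36.8 CPM in KO LT-HSC, against 1.03, 2.22, 1.42 and 2.78 CPM in KO MPP2 (log2 fold change 3.66 ± 0.64, edgeR adjusted p = 0.00481). Both held without each library. Of 28 CDK inhibitors and quiescence genes, Cdkn1c was called higher and Cdkn2c, another inhibitor, lower, the second lost without any library but KO LT-HSC 2. Among replication genes 2 of 64, E2f8 and Mcm10, were called lower, 0 higher, and 63 had fitted values below 0, with a median of -0.69. Mcm10 was lost without any library but KO LT-HSC 2 and KO MPP2 1, while E2f8 held without each. E2f8, a repressor of the E2F family expressed in cycling cells, had 11.5, 18.3 and 5.14 CPM in KO LT-HSC, against 52.7, 49.7, 68.8 and 87.2 CPM in KO MPP2. Replication-dependent histones, whose near-identical copies make single values uncertain, gave 6 calls lower of 55, with a median of -1.58. Hist1h2bm had 2.62, 2.91 and 2.37 CPM in KO LT-HSC, against 14.6, 14.3, 16.4 and 11.02 CPM in KO MPP2. The histone calls numbered 1 without KO LT-HSC 1, and 3 each without KO LT-HSC 3, KO MPP2 2, KO MPP2 3, KO MPP2 4, WT LT-HSC 1 or WT LT-HSC 2. Ezh2, the methyltransferase of Polycomb complex 2, averaged 99.9 ± 8.29 CPM in KO LT-HSC and 164 ± 33.5 CPM in KO MPP2. It was the 1 call, lower, of 42 Polycomb, NuRD and DNA methylation genes, and was lost without any library but KO MPP2 1.

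Promoters of mitotic genes often carry a pair of short elements, the cell cycle homology region and the CCAAT box, which are known to serve the DREAM complex, MuvB and NF-Y. The RefSeq promoter windows of 3 of the 4 leading mitosis genes (GRCm38.p6, 250 bases before to 50 after the start site) are shown because their letters bear on this shared group. Capitals mark TTTGAA, the core of the first element, and CCAAT, on either strand (TTCAAA and ATTGG on the opposite one). The Kif15 window is chr9:122950831-122951130, plus strand, Kif4 is chrX:100625815-100626114, plus strand, and Nek2 is chr1:191821223-191821522, plus strand.
Kif15: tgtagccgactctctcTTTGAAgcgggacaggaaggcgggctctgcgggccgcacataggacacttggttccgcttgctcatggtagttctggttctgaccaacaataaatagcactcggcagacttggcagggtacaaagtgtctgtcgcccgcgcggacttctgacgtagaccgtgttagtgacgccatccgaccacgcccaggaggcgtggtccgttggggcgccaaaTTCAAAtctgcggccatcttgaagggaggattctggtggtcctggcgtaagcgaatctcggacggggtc
Kif4: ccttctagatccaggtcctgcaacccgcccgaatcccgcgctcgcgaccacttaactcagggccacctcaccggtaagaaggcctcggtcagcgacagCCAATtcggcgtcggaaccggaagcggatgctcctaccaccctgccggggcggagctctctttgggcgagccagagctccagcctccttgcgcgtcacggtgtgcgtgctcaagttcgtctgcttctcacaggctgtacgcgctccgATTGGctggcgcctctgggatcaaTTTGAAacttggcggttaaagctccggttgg
Nek2: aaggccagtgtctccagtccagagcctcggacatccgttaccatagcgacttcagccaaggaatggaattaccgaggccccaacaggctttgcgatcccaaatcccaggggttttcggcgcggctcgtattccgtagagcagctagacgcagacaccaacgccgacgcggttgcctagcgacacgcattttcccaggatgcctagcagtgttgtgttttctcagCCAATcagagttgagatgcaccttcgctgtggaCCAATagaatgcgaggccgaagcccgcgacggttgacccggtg
TTTGAA was found in the windows of Kif15 and Kif4, and CCAAT in those of Kif4 and Nek2. Over the called mitosis genes, 19 of 24 had a window, and 12 (63.2%) of these held TTTGAA and 11 (57.9%) CCAAT. Over all 61 mitosis genes 50 had a window, of which 36 (72.0%) held TTTGAA and 37 (74.0%) CCAAT, so the share was no larger among the called members. Of all genes tested, 12421 had a window, and 12.8% held TTTGAA and 38.3% CCAAT. Among the 117 windows of all genes called lower the share with TTTGAA was 30.8%, and among the 164 of genes called higher 12.2%. These matches describe letters in a window and were not tested.

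Granulocyte-monocyte genes were the other group with many lower calls, 8 of 43, with 0 higher and 39 with fitted values below 0. The median was -3.76, also when Ctsg, at 0 counts in KO LT-HSC, was set at its bound. Plac8 (chromosome 5, 100553725 to 100572245, minus strand), a cysteine-rich protein of myeloid and lymphoid progenitors, had 90.7, 47.5 and 12.0 CPM in KO LT-HSC, against 1035, 1164, 563 and 368 CPM in KO MPP2 (log2 fold change -3.97 ± 0.56, edgeR adjusted p = 0.00109). Nkg7, a granule protein also found in T and NK cells, had 71.2, 105 and 28.7 CPM in KO LT-HSC, against 582, 649, 588 and 502 CPM in KO MPP2 (log2 fold change -3.09 ± 0.39). Cst7, an inhibitor of lysosomal proteases, had 2.77, 2.67 and 0 CPM in KO LT-HSC, against 93.7, 149, 87.2 and 92.6 CPM in KO MPP2. The transcription factor Cebpa, which starts the granulocyte-monocyte programme, was low throughout, at 0.144, 0 and 0.0334 CPM in KO LT-HSC, against 2.71, 2.27, 1.74 and 2.46 CPM in KO MPP2. For these 4 genes every KO MPP2 library lay above every KO LT-HSC library, and the calls held without each library.

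The remaining 4, Mpo, Ctsg, Clec12a and Csf1r, were uneven. Mpo, the neutrophil peroxidase made by granulocyte-monocyte progenitors, had 1.51, 7.71 and 0 CPM in KO LT-HSC, against 1799, 2317, 1371 and 32.0 CPM in KO MPP2. Ctsg, a granule protease, had 0 counts in each KO LT-HSC library, against 4491, 5709, 4800 and 18 counts in KO MPP2, at least 4502-fold lower with a floor of 3 counts over the group. For all 4 genes KO MPP2 4 lay far below KO MPP2 2 and KO MPP2 3, and each call was lost without any 1 of the 3 KO LT-HSC libraries. The whole granulocyte-monocyte list summed to 2221, 2281 and 1949 CPM in KO LT-HSC, against 23100, 8674, 5581 and 2304 CPM in KO MPP2. Of the KO MPP2 libraries, KO MPP2 4 alone came near the KO LT-HSC level. The granulocyte-monocyte genes had 4 calls each without KO LT-HSC 2, KO LT-HSC 3, KO MPP2 2 or KO MPP2 3, and 5 each without KO LT-HSC 1 or WT LT-HSC 2. With KO MPP2 1, KO MPP2 2 and the other libraries high in immunoglobulin or rRNA left out, they had 3 calls higher and 8 lower, with a median of -1.34. Several other lower genes past 10 CPM were at or near 0 in KO LT-HSC. Gna14, a G protein subunit, had 1, 1 and 0 counts in KO LT-HSC, against 568, 411, 588 and 758 counts in KO MPP2. Pdzph1 had 0 counts in KO LT-HSC and 105, 225, 377 and 419 counts in KO MPP2, at least 337.5-fold lower. Scin, an actin-severing protein, had 1 count in all of KO LT-HSC and 49 to 503 counts in KO MPP2. Gna14 held without each library, whereas Pdzph1 was lost without any 1 of the KO LT-HSC libraries and Scin without KO LT-HSC 1 or KO LT-HSC 3. Ifi209, of the IFI200 DNA-sensor family, had 0 counts in KO LT-HSC, against 916, 318, 313 and 16 counts in KO MPP2, at least 468.5-fold lower. Itgal, the integrin chain of LFA-1, averaged 2.50 ± 1.30 CPM in KO LT-HSC and 58.6 ± 64.3 CPM in KO MPP2, where KO MPP2 1 had 155 CPM and the others 25.001 to 27.7 CPM. Cmah, a sialic acid hydroxylase, had 1 count in KO LT-HSC and 86 to 950 counts in KO MPP2, and was lost without any 1 of the KO LT-HSC libraries. Cd37, a leukocyte tetraspanin, averaged 35.3 ± 12.3 CPM in KO LT-HSC and 113 ± 18.0 CPM in KO MPP2.

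Markers of mature cells differed between libraries, and neutrophil markers were high together with Mpo in KO MPP2 1 alone. Summed neutrophil markers had 16040 CPM in KO MPP2 1, in which Mpo was also high, while in KO MPP2 2 and KO MPP2 3 Mpo had 2317 and 1371 CPM with neutrophil markers at 48.8 and 48.4 CPM. None of 17 neutrophil, 24 B and plasma cell and 13 mature erythroid markers was called by edgeR. At an unadjusted p under 0.05 there were 12, 14 and 0 of them, beside 3439 of all 21100 genes tested. DESeq2 called 2, 5 and 0, and voom 0 of any. Of the other lists, 2 of 17 macrophage markers (Csf1r and Cx3cr1) and 1 of 17 T and NK cell markers tested (Nkg7) were called lower, and 2 of 19 stroma and endothelium markers (Emcn and Eng) higher. B and plasma cell markers summed to 37.0% of all counts in KO MPP2 1 and 1.97% in KO MPP2 2, against 0.0205% to 0.0318% in the other libraries. Ighm, the antibody heavy chain, had 2.05, 2.19 and 0.0334 CPM in KO LT-HSC, against 301467, 5851, 22.2 and 1.21 CPM in KO MPP2, and was not called (edgeR adjusted p = 0.154). The part of these cells in the other results was not tested. With all 6 libraries over 1% immunoglobulin or 10% rRNA counts left out, KO MPP2 1 and KO MPP2 2 among them, there were 1497 calls, and 306 of the 381 were among them. In that fit the platelet list had 4 calls higher and 8 lower.

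**Figure D3:**
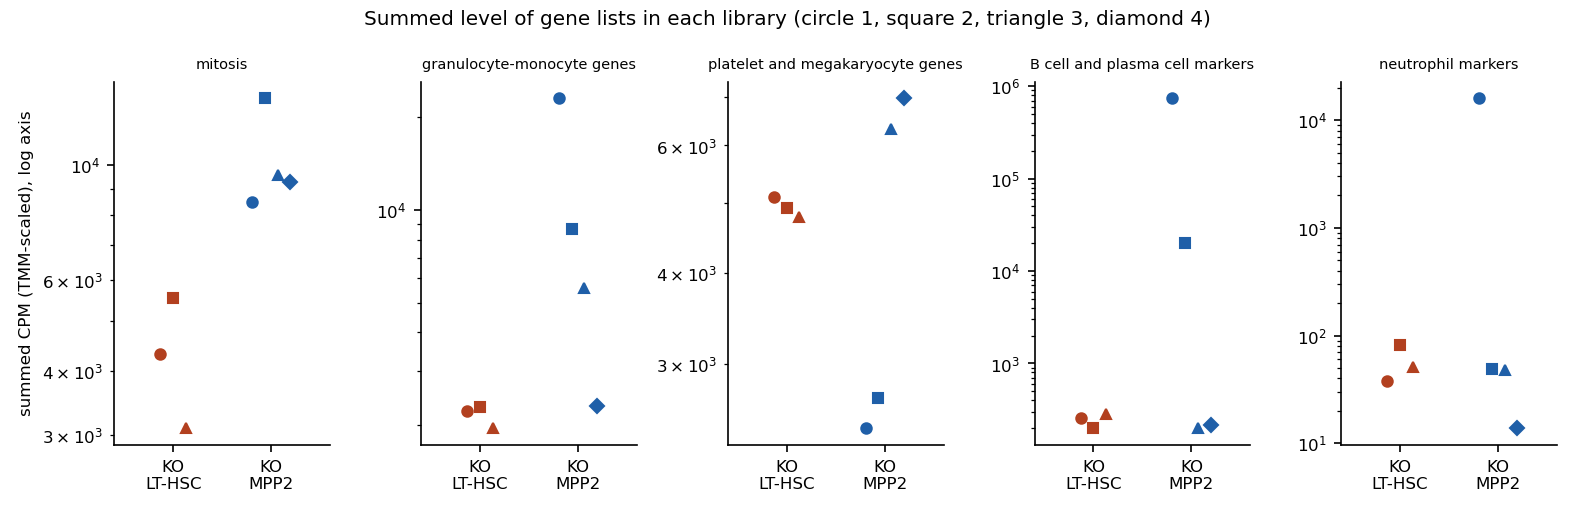
Summed level of 5 gene lists in each library, in TMM-scaled CPM on log axes, with KO LT-HSC to the left of KO MPP2. Mitosis genes are higher in all 4 KO MPP2 libraries, while B cell and neutrophil markers peak in KO MPP2 1 and the platelet list is split among KO MPP2 libraries.

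MPP2 are known for megakaryocyte and erythroid bias. The platelet and early erythroid lists gave no lower calls in the main result, where 0.758% of all genes tested were called lower. In lists of 39 and 34 genes, 0 lower calls cannot be told from that share. The early erythroid genes leaned toward KO MPP2. Of 39 platelet and megakaryocyte genes, 4 were called higher in KO LT-HSC (Gng11, Mmrn1 and Mylk among them) and 0 lower, with a median of -0.07. The median turned to 0.07 when 1 gene under the floor in both groups was left out, and was 0.23 by voom. Gng11, a G protein subunit of platelets, had 273, 224 and 219 CPM in KO LT-HSC, against 51.4, 62.2, 80.7 and 64.0 CPM in KO MPP2 (log2 fold change 1.89 ± 0.26, edgeR adjusted p = 0.000955). The summed list had 5090, 4913 and 4774 CPM in KO LT-HSC, against 2443, 2689, 6324 and 6976 CPM in KO MPP2, so that KO LT-HSC lay between the KO MPP2 libraries with low and with high title numbers. Pf4, platelet factor 4, had 338, 701 and 358 CPM in KO LT-HSC, against 88.3, 116, 1222 and 1165 CPM in KO MPP2, and was not called (log2 fold change -0.48 ± 1.01, edgeR adjusted p = 0.880). Gata1, the master erythroid and megakaryocyte factor, had 35.9, 83.2 and 59.5 CPM in KO LT-HSC, against 52.6, 149, 336 and 382 CPM in KO MPP2 (edgeR adjusted p = 0.505). Flt3, the receptor of lymphoid-primed progenitors that was not in the sort, ran the other way among KO MPP2 libraries, with 14.5, 40.0 and 9.71 CPM in KO LT-HSC and 137, 315, 14.7 and 4.81 CPM in KO MPP2. Of 34 early erythroid genes, 33 had fitted values below 0 and the median was -0.99, but 0 were called lower and 1, Cnrip1, higher. Lymphoid priming genes gave 1 call higher (Ltb) and 1 lower (Cd37) of 33.

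Because the KO MPP2 libraries split by title number, the comparison was repeated within each kind. Within low numbers (KO LT-HSC 1 and 2 against KO MPP2 1 and 2) 147 genes were called, and within high numbers (KO LT-HSC 3 against KO MPP2 3 and 4) 570. With 1 KO LT-HSC library in the second, its spread was taken from the other groups. Of the 381 calls, 91 were also made within low numbers and 127 within high numbers. These fits use the same libraries as the main result. Mitosis calls numbered 2 within low and 11 within high numbers, with medians of -1.25 and -1.66. The platelet list had 4 calls higher and 0 lower within low numbers, and 1 higher and 3 lower within high numbers, with medians of 0.87 and -0.19.

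Housekeeping lists held few calls. Of 75 nuclear respiratory chain subunits, 74 had fitted values below 0 with a median of -0.39, and 0 were called by edgeR, with 30 at an unadjusted p under 0.05, 5 called by DESeq2 and 4 by voom. Ribosome biogenesis genes had a median of -0.30, with 46 of 52 below 0, and transfer RNA synthetases a median of -0.33, with 20 of 20 below 0. No member of either was called by edgeR. Unadjusted p was under 0.05 for 2 and 3 members, beside 3439 of all 21100 genes tested. DESeq2 called 0 and 1, and voom 0. The lactate dehydrogenase subunit Ldhb was the 1 call, higher, of 27 glycolysis genes, at 120 ± 25.5 CPM in KO LT-HSC and 25.8 ± 12.9 CPM in KO MPP2.

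**Figure D4:**
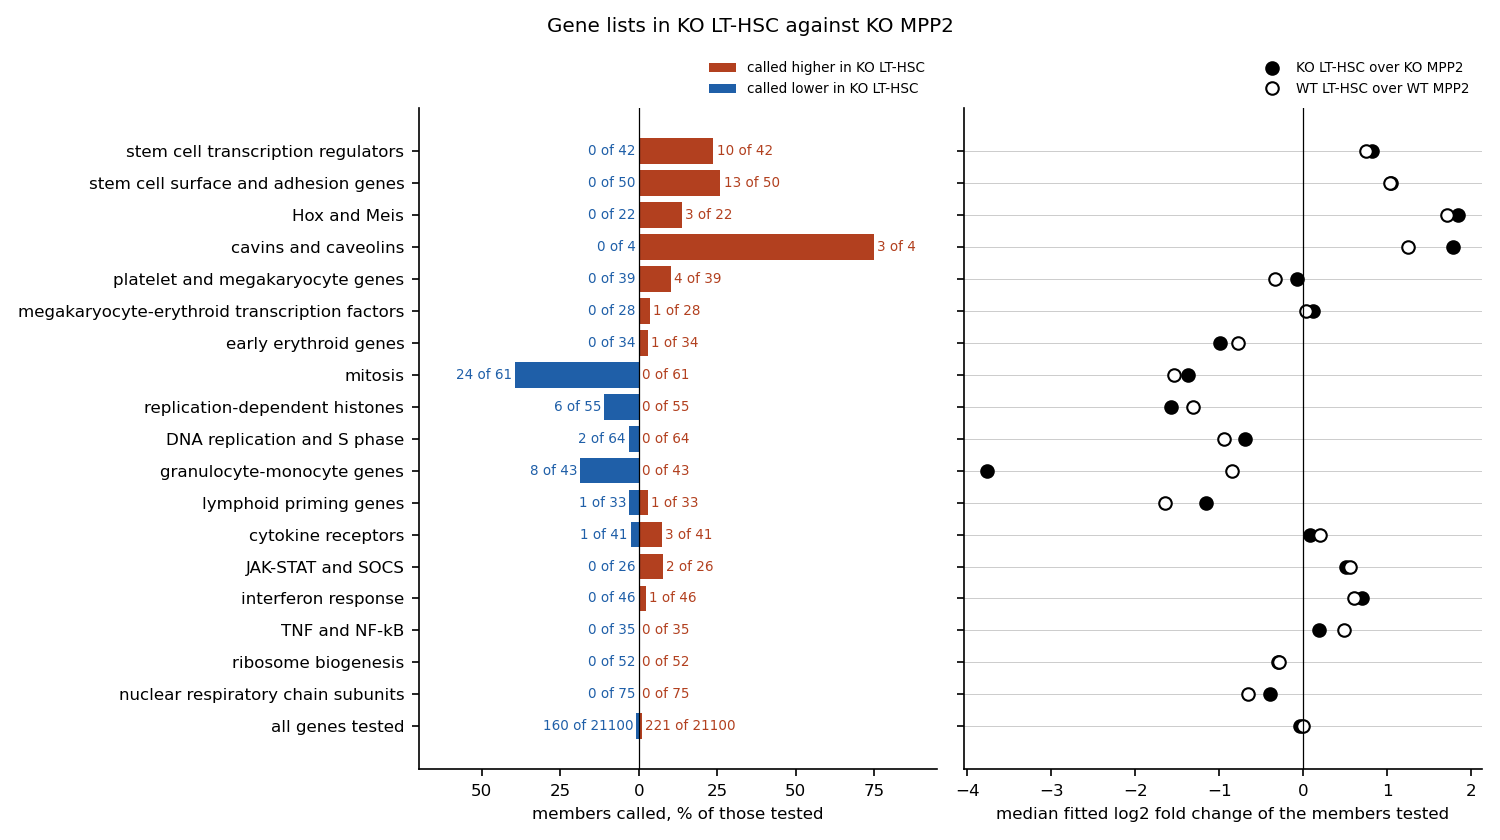
Left, members of each list called higher or lower in KO LT-HSC as a percentage of those tested, with counts. Right, median fitted log2 fold change of the members, KO LT-HSC over KO MPP2 (filled) and WT LT-HSC over WT MPP2 (open). The bottom row gives all 21100 genes.

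The last question was whether the step differed from that in WT mice, for which 2 WT LT-HSC and 4 WT MPP2 libraries were used. No gene was called by edgeR for a difference between the KO step and the WT step. An unadjusted p under 0.05 was found for 759 of the 21100 genes tested, a share that is itself under 0.05. Limma voom called 0 and DESeq2 24, of which 23 had 0 counts in all libraries of 1 of the 4 groups. Of the 381 genes, 375 (98.4%) had the same sign in the WT step, and 79 were also called there. Of all genes tested, 49.5% had a fitted WT value above 0. The WT step had 133 calls (0.63%), all 133 with the same sign in KO. The higher genes had a median of 2.03 in KO and 1.501 in WT, and the lower genes -1.68 in KO and -1.55 in WT. The genes were chosen in KO, so these medians are a description and not an even comparison of the genotypes. With 2 WT LT-HSC libraries, a missed threshold does not show that the steps are equal. Esam had a log2 fold change of 2.42 in KO and 1.67 in WT, a difference of 0.75 ± 0.57. For Kif15 the values were -1.72 in KO and -1.88 in WT, a difference of 0.16 ± 0.38, and for Cd48 -4.98 in KO and -5.38 in WT, a difference of 0.41 ± 0.70. Mecom had 3.36 in KO and 1.85 in WT, a difference of 1.505 ± 0.83. The granulocyte-monocyte list had a median of -3.76 in KO and -0.85 in WT, and no member was called for the difference. Without the immunoglobulin-rich libraries the KO median of the granulocyte-monocyte genes was -1.34. The WT median of -0.85 still includes WT MPP2 1 and WT MPP2 2, with 4.08% and 3.52% immunoglobulin counts. The values -1.34 and -0.85 are therefore not a matched comparison of the genotypes. Of KO MPP2, the fit behind -1.34 kept only KO MPP2 3 and KO MPP2 4, both with high title numbers. Title number and immunoglobulin content thus cannot be told apart in it. The neutrophil markers, which peaked in KO MPP2 1, had a median of -8.29 in KO and 2.35 in WT, and -0.05 in KO without KO MPP2 1. Cebpa had -5.19 in KO and -2.09 in WT, a difference of -3.10 ± 0.95. Its unadjusted edgeR p was 0.00409 and its adjusted p 0.99999. With 4, 0 and 1 counts in KO LT-HSC, both the KO value and the difference rest on very few reads.

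**Figure D5:**
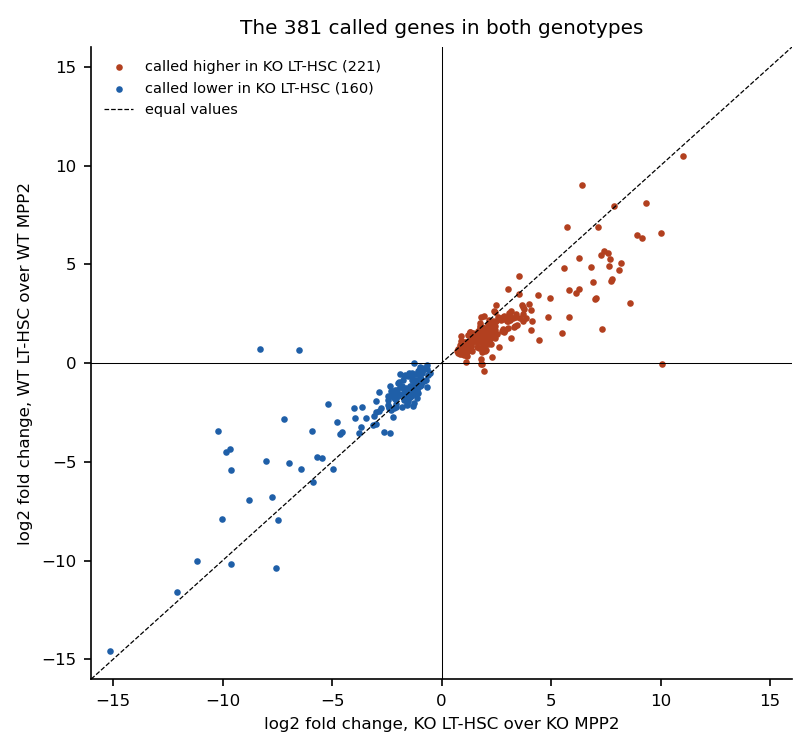
The 381 called genes, with log2 fold change of KO LT-HSC over KO MPP2 on the x axis and of WT LT-HSC over WT MPP2 on the y axis. Of these, 375 lie in the quadrants of equal sign, and the dashed line marks equal values.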

How the data were processed

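The authors deposited raw read counts per gene, 54446 IDs for 21 libraries, used here without change. The aligner was STAR and the genome mm10, per the submitters' processing notes. No source used here names the STAR version, the counting program or the annotation. Names and coordinates are from GENCODE M21 (54409 IDs matched), and promoters from RefSeq. All 21 libraries entered 1 edgeR 4.0.16 quasi-likelihood model (robust, TMM) under R 4.3.3, after filterByExpr at a minimum count of 10, with Benjamini-Hochberg adjustment at 0.05. Each SE divides the size of the log2 fold change by the root of its F statistic. Alternatives used DESeq2 1.42.0, limma 3.58.1, other scalings and filters, blocks and left-out libraries. The comparison and lists were chosen with earlier results of these data known. Named genes are Phf6, the sort markers, the 15 largest changes each way among calls of at least 10 CPM without overlap, up to 4 of smallest p per list, and others called out by a count. Chosen outside that rule after values were seen were Hlf, Procr, Fgd5, Prdm16, Txnip, Pdzk1ip1, Krt18, Top2a, Mki67, Gata1, Pf4, Flt3 and those under other observations. Replicates are separate samples by label, and p values cover the spread between them. Floors and intervals cover counting error only. Some genes are not reported here. The code was tested on simulated data.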

Additional observations from a re-analysis of the deposited data

Results flagged for a closer look

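Among the 4 KO MPP2 libraries, 12 of 155 values examined had 1 library far from the other 3 by Dixon's criterion, which chance gives for about 1 in 20 values. In KO MPP2 1, immunoglobulin heavy chain Ighm had 3.015e+05 CPM against 1.21 to 5851 CPM in the other KO MPP2 libraries. B cell and plasma cell markers summed to 7.46e+05 CPM there, against 198 to 19890 CPM, and lymphoid priming genes to 3.47e+05 CPM, against 1261 to 9686 CPM. These sums are scaled by a TMM factor of 0.496 in that library. Neutrophil markers summed to 1.604e+04 CPM in KO MPP2 1, CDK inhibitors and quiescence genes to 2146 CPM, and imprinted growth control genes to 206.1 CPM. Ly6a had 1429 CPM, Itgal 154.9 CPM and Cmah 61.33 CPM in the same library. In KO MPP2 2, Cst7 stood out at 148.7 CPM and Ikzf4 at 0.5259 CPM. In KO MPP2 3, Tm4sf1 stood out at 0.03548 CPM, which is 1 count against 0 in the others. The called genes among them were Cst7, Itgal, Cmah, Ikzf4 and Tm4sf1. Their groups did not overlap, but the rule that named these genes required this, so it says nothing about the libraries that stood out.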

How the results depend on the processing

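The count of 381 calls (221 higher, 160 lower) changed by under 1.5 times with RLE size factors, upper-quartile factors, other filters on low counts, the replicate blocks, and without immunoglobulin genes. DESeq2 gave 1245 calls (676 higher, 569 lower), limma voom 799 (542, 257) and voom with quality weights 1738 (1171, 567). With only the 7 libraries in the fit there were 116 calls (89, 27), and with only the 11 KO libraries 149 (105, 44). A term for title numbers gave 595 (363 higher), low numbers alone 147 (74, 73) and high numbers alone 570 (317 lower). With 1 of the 7 libraries left out, calls ran from 146 to 474 (103 to 298 higher, 43 to 176 lower), and lower calls were 88, 87 and 105 without WT LT-HSC 1, WT LT-HSC 2 and WT MPP2 2. Alternatives chosen after seeing the data gave 1497 calls (815, 682) without libraries rich in immunoglobulin or rRNA counts and 218 (58 lower) without KO LT-HSC 3 and KO MPP2 1. The difference between the KO and WT steps had 0 calls under each alternative that allowed it but DESeq2, with 24. Deviations of same-numbered KO LT-HSC and KO MPP2 libraries correlated at 0.130, 0.0999 and 0.0515, so the numbers were not taken to pair samples. Each KO LT-HSC library correlated best with the KO MPP2 library of its own run of titles, a hint from the data and not from the design. The replicate block by number gave 424 calls, 288 of them among the 381, and the block by title run 404, with 275 shared. The causes of these shifts were not tested. Of the named genes, 6 changed sign under some alternative, none of them called: Ly6a, Pf4, Kit, Phf6, Slamf1 and Flt3. Ly6a (-0.70) had 2.04 by voom, 2.77 with quality weights, 0.85 and 1.09 with the replicate block by number and by run, 0.44 with the title-number term, 3.93 within high numbers, -1.11 to 2.05 with 1 library left out (2.05 without KO MPP2 1), 4.40 without the rich libraries and 2.25 without KO LT-HSC 3 and KO MPP2 1. Pf4 (-0.48) had 0.23 by voom, 0.17 with quality weights, 0.038 and 0.071 with those blocks, 0.36 with the term, 2.37 within low numbers and -0.90 to 0.028 with 1 library left out. Kit (0.19) had -0.15 within low numbers and Phf6 (-0.29) 0.23 within high numbers. Slamf1 (0.30) had -0.27 within high numbers and -0.22 without the rich libraries, and Flt3 (-2.46) 0.042 and 1.12. Depth limits genes under about 0.12 CPM, and 3 against 4 libraries limit all others.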

Other observations

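Among the 88 calls that held without each library were genes outside the lists, chosen here after their values were seen. Fstl1, a secreted follistatin-like protein, had 107, 89.8 and 77.3 CPM in KO LT-HSC, against 10.2, 16.4, 12.2 and 7.74 CPM in KO MPP2 (log2 fold change 2.97 ± 0.41). Eya2, a transcriptional coactivator with phosphatase activity, averaged 76.6 ± 25.5 CPM in KO LT-HSC and 15.9 ± 2.51 CPM in KO MPP2. App, the amyloid precursor protein, averaged 35.2 ± 10.6 CPM in KO LT-HSC and 6.17 ± 1.64 CPM in KO MPP2. Fcgrt, the neonatal Fc receptor that recycles antibodies, averaged 49.4 ± 11.2 CPM in KO LT-HSC and 4.99 ± 2.87 CPM in KO MPP2. Pik3r1, the regulatory subunit of PI3 kinase, averaged 188 ± 33.5 CPM in KO LT-HSC and 67.2 ± 13.6 CPM in KO MPP2, and Tle2, a Groucho-type corepressor, 25.7 ± 6.75 CPM in KO LT-HSC and 3.10 ± 1.22 CPM in KO MPP2. For all 6 genes the lowest KO LT-HSC library lay above the highest KO MPP2 library.

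On the lower side, Lgals1, the galactose-binding lectin galectin-1, had 46.4, 48.1 and 55.4 CPM in KO LT-HSC, against 324, 192, 206 and 274 CPM in KO MPP2 (log2 fold change -2.32 ± 0.33, edgeR adjusted p = 0.00123). Bin1, a membrane-bending protein, averaged 9.09 ± 3.57 CPM in KO LT-HSC and 48.8 ± 14.4 CPM in KO MPP2. Ccnf, cyclin F, averaged 20.7 ± 2.48 CPM in KO LT-HSC and 76.3 ± 12.1 CPM in KO MPP2. Ptger2, a receptor of prostaglandin E2, had 0 counts in KO LT-HSC, against 51, 222, 6 and 68 counts in KO MPP2. Pooled over the group, KO MPP2 had at least 104.0-fold more with a floor of 3 counts, though KO MPP2 3 was near that floor.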
